A study of Mus musculus with 2 samples.

Results

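The miR-200 family in the mouse consists of 5 microRNA genes in 2 genomic clusters, Mir200b, Mir200a and Mir429 on chromosome 4 and Mir200c and Mir141 on chromosome 6. These 5 genes were taken by symbol from the 2202 microRNA genes in the deposited tables. They were measured by short RNA sequencing in the hippocampus of 25-day-old females of B6CASTF1/J, the first-generation cross of C57BL/6J with CAST/EiJ. The labels give 1 group with 2 biological replicates and no treatment or second genotype, name the tissue as a layer of the hippocampus without saying which, and list both tissue samples under the same donor entry, so whether they came from separate animals is not stated. The family was singled out because its levels in these 2 libraries were already known to differ, so every difference between the libraries is given here as a description, with no test.

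MicroRNAs are cut from hairpin precursors and guide Argonaute proteins to messenger RNAs, mainly through the seed, bases 2 to 8 of the mature strand. The miR-200 family is best known from epithelia. It represses the transcription factors Zeb1 and Zeb2, which in turn repress the miR-200 genes, and it helps to keep the epithelial state against the epithelial to mesenchymal transition (EMT). In the nervous system, members of the family are known from olfactory tissue and from differentiating neural progenitors. Messenger RNAs were not measured in these libraries, so Zeb1 and Zeb2 themselves have no values here.

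The 3′ arm is the strand by which the family is defined, and its sequences show how the 5 genes relate. All 5 genes matched an entry in RefSeq (GRCm38.p6, the assembly also called mm10), and the sequences below run 5′ to 3′ with the seed in capitals.
miR-200b-3p: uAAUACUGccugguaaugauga
miR-200c-3p: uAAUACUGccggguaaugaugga
miR-429-3p: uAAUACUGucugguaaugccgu
miR-200a-3p: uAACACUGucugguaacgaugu
miR-141-3p: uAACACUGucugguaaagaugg

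The seed AAUACUG is shared by miR-200b, miR-200c and miR-429, and the seed AACACUG by miR-200a and miR-141. The seeds differ at a single base, U4C from miR-200b to miR-200a, counted from 1 at the 5′ end. Of the 1738 mature mouse sequences in the RefSeq table, 3 carry AAUACUG and 2 carry AACACUG, so each seed occurs in members of the family and in no other listed sequence. The seed groups cut across the genomic clusters, because each cluster holds at least 1 gene of each seed. The closest pairs lie on different chromosomes. From miR-200b-3p to miR-200c-3p the first 22 bases differ by U11G and A22G, and from miR-200a-3p to miR-141-3p by C17A and U22G. Every other pair differs at 4 or 5 of the 22 bases.

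The counts are per hairpin gene, so reads of both arms enter the same value and the arms cannot be told apart. The hairpin of Mir200c, the family's most abundant gene by mean level, shows what a gene count covers, with its 5′ and 3′ arms in capitals.
Mir200c hairpin: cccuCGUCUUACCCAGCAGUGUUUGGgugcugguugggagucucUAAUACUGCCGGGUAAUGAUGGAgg

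Reads that match several places were given to no gene. The longest stretch a member shares with any other of the 2202 microRNA genes is 17 bases, between Mir200a and Mir141, followed by 14 bases between Mir200b and Mir200c and 13 between Mir429 and Mir218-2. No member shares its whole mature sequence with another of these microRNA genes. The rest of the genome was not searched. The mismatch setting of the alignment is not given in the sources used here, and pairs of arms that differ at 2 bases could exchange reads if mismatches were allowed.

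All 5 genes lie on the minus strand, in mm10 coordinates counted from 1. The chromosome 4 cluster spans 1846 bases in transcription order Mir200b, Mir200a, Mir429. Mir200b (ENSMUSG00000065549.3) lies at chr4:156055681-156055750 and Mir200a (ENSMUSG00000065400.1) at chr4:156054896-156054985, both in an intron of the noncoding gene Gm13648 and in an intron of the protein-coding gene Ttll10. Mir429 (ENSMUSG00000065427.1) lies at chr4:156053905-156053987, in exon 2 of Gm13648 and also in an intron of Ttll10. The gaps between neighbouring hairpins are 695 and 908 bases. On chromosome 6, Mir200c (ENSMUSG00000065462.3, chr6:124718322-124718390) and Mir141 (ENSMUSG00000065474.1, chr6:124717914-124717985) lie 336 bases apart in an intron of the noncoding gene Gm15884, and Mir141 also overlaps part of Gm29008, a transcript entry of the annotation's provisional class. All these host genes are on the same strand as the hairpins.

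The promoter of Gm13648 is shown because the 3 hairpins of chromosome 4 lie within this transcript. No such window is shown for Gm15884 on chromosome 6. Any part of the promoter in the difference between the libraries was not tested. The window holds 250 bases before and 50 after the annotated start (RefSeq, GRCm38.p6, chr4:156059753-156060052, minus strand). Capitals mark the E-box CACCTG, the kind of site to which Zeb1 and Zeb2 are known to bind.
Gm13648 promoter: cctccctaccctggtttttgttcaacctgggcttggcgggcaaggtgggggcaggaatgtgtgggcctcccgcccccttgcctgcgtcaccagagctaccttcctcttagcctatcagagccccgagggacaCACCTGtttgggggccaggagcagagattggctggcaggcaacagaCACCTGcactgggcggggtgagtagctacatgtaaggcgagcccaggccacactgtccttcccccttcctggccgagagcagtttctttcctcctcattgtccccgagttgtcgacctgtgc

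CACCTG was searched on both strands, where the other strand reads CAGGTG. It occurs 2 times in this window, starting 118 and 72 bases before the annotated start. Of 32851 promoter windows of the same length in the RefSeq table, 20.2% hold it at least 1 time and 2.88% at least 2 times. A match of letters is a description of the sequence and not a measured binding site.

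The tables assign 4266963 reads to microRNA genes in replicate 2 and 5481053 in replicate 1, and levels are given as these counts scaled to a common library total of 1000000 (CPM). Reads with several matches were 46.4% of all reads in the replicate 2 table and 41.9% in the replicate 1 table. The floor for a gene without counts, set at 3 counts, lies at 0.703 CPM for replicate 2 and 0.547 CPM for replicate 1. Of 17 neuron-enriched genes, 14 had at least 2 CPM in both libraries, beside 433 of all 2202 microRNA genes. The 17 genes together held 8.35% of all gene counts in replicate 2 and 6.01% in replicate 1. Several genes of the list are numbered copies, and reads that match more than 1 copy enter no gene. The share and the detected count cover the remaining reads only. Mir124a-1, Mir124a-2 and Mir124a-3 had 4.69, 3.05 and 0.937 CPM in replicate 2, and 3.28, 0.365 and 0.730 CPM in replicate 1. This list was chosen with earlier results of these data known, and it cannot tell the hippocampus from other tissue with neurons. It is therefore no test of the tissue label. Intervals below are exact 95% intervals for counting error only. Copies made by PCR are not independent molecules, so the intervals can be too narrow even for counting error.

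The miR-200 family as a whole was a minor component in replicate 1 and a moderate one in replicate 2. Its 5 genes had 24851 counts in replicate 2, or 5824 CPM (interval 5752 to 5897), and 397 counts in replicate 1, or 72.4 CPM (65.5 to 79.9). That is 0.582% of the microRNA counts in replicate 2 and 0.00724% in replicate 1. The mean over the libraries was 2948 ± 4067 CPM (SD, n = 2), with an SD larger than the mean, so no single level describes the family in this tissue. The summed level was 80.4-fold higher in replicate 2 than in replicate 1 (interval 72.8 to 89.0). The replicate 1 library, where the family is low, is the deeper of the pair.

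Mir200c, of the AAUACUG seed group, had the highest mean level of the family. It had 11547 counts in replicate 2, or 2706 CPM, and 107 counts in replicate 1, or 19.5 CPM (interval 16.0 to 23.6). It ranked 68th of all microRNA genes in replicate 2 and 281st in replicate 1. Its level was 139-fold higher in replicate 2 (interval 115 to 169), the largest fold among the 433 genes with at least 2 CPM in both libraries, which are called detected below.

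Mir141, the downstream partner of Mir200c, was the lowest member in both libraries. It had 557 counts in replicate 2, or 131 CPM, and 4 counts in replicate 1, or 0.730 CPM, close to the level that a count of 0 allows. It therefore missed the minimum of 2 CPM in replicate 1 and is the only member that was not detected by that rule. Its ratio of 179 rests on these 4 counts and has an interval of 69.5 to 659, so it cannot be placed above or below that of Mir200c.

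Mir429 was the second most abundant member by mean level. It had 7239 counts in replicate 2, or 1697 CPM, and 125 counts in replicate 1, or 22.8 CPM (interval 19.0 to 27.2). The level was 74.4-fold higher in replicate 2 (interval 62.3 to 89.5).

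Mir200b, first of the chromosome 4 cluster in transcription order, had 4494 counts in replicate 2, or 1053 CPM, and 144 counts in replicate 1, or 26.3 CPM (interval 22.2 to 30.9). With 40.1-fold (interval 34.0 to 47.7) it had the smallest difference of the family, and it was the member with the most counts in replicate 1. Mir200a, which lies between Mir200b and Mir429, was far lower than both neighbours in both libraries. It had 1014 counts in replicate 2, or 238 CPM, and 17 counts in replicate 1, or 3.10 CPM (interval 1.81 to 4.97), a ratio of 76.6 (interval 47.6 to 132).

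**Figure D1:**
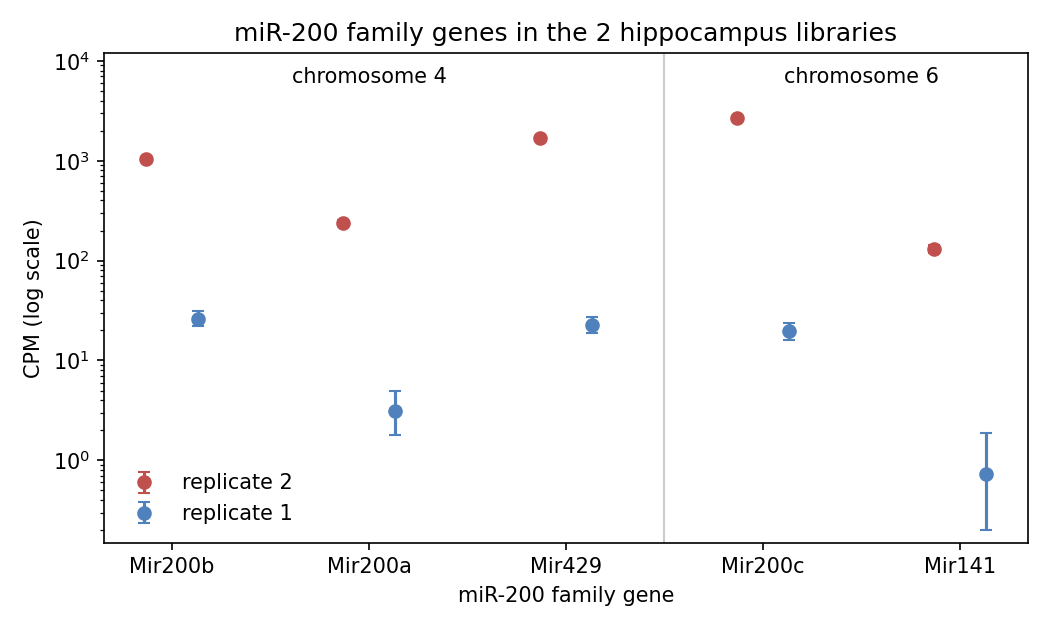
CPM on a log axis for each of the 5 genes in replicate 2 (red) and replicate 1 (blue), with exact 95% Poisson intervals for counting error, which are narrower than the points for replicate 2. The replicate 2 values lie between 131 and 2706 CPM and the replicate 1 values between 0.730 and 26.3 CPM, so the libraries do not overlap.

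By mean level the order was Mir200c (1363 ± 1899.7 CPM), Mir429 (859.7 ± 1183.5), Mir200b (539.7 ± 726), Mir200a (120.4 ± 166) and Mir141 (65.6 ± 91.8; SD, n = 2 each). Each SD exceeds its mean and holds the library difference that all 5 genes share, so the SDs do not tell whether neighbours differ. Counts of Mir200b exceeded those of Mir200a in both libraries (ratio 4.43 in replicate 2 and 8.47 in replicate 1). Counts of Mir200a likewise exceeded those of Mir141 (1.82 and 4.25). The order changed between the libraries for Mir200c over Mir429 (1.60 and 0.856) and for Mir200b over Mir429 (0.621 and 1.15). Within a library the order can be read against counting error. In replicate 2 it was Mir200c, Mir429, Mir200b, Mir200a, Mir141, with no overlap of neighbouring intervals. In replicate 1 it was Mir200b, Mir429, Mir200c, Mir200a, Mir141, and the intervals of Mir200b and Mir429 overlapped, as did those of Mir429 and Mir200c, of Mir200b and Mir200c, and narrowly those of Mir200a and Mir141. Overlap does not mean that levels are equal. In replicate 1 the interval of the count ratio excluded 1 for Mir200c over Mir200b (0.743, 0.573 to 0.961) and Mir200a over Mir141 (4.25, 1.39 to 17.4). It included 1 for Mir200b over Mir429 (0.900 to 1.48) and Mir200c over Mir429 (0.655 to 1.12). The microRNA genes of nearest mean level are given as a description only, because the members were chosen for their difference between the libraries. Some of these neighbours were higher in replicate 2 and others lower. Mir543, next above Mir200c, had 429.8 CPM in replicate 2 and 2409 in replicate 1, and Mir27b, next below, had 819 and 1825 CPM in replicates 2 and 1. Mirlet7c-1 (1129.8 and 655 CPM in replicates 2 and 1) and Mir150 (397 and 1215) stood on either side of Mir429. Mir3102 (249.8 and 840.0) and Mir490 (947 and 122) flanked Mir200b, Mir210 (154 and 87.9) and Mir9-3 (166 and 70.6) flanked Mir200a, and Mir8112 (66.3 and 72.6) and Mir181a-2 (28.8 and 98.5) flanked Mir141, again with replicate 2 before replicate 1.

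The clusters divided the family's counts differently in the libraries. The chromosome 4 genes held 51.3% of the family's counts in replicate 2 (interval 50.7 to 51.9) and 72.0% in replicate 1 (67.3 to 76.4). The chromosome 6 genes held 48.7% in replicate 2 and 27.96% in replicate 1. The summed level of the chromosome 6 cluster was 140.1-fold higher in replicate 2 (interval 116 to 170.4), and that of the chromosome 4 cluster 57.3-fold (50.9 to 64.6), so the clusters' folds differ beyond counting error.

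Mir200c and Mir200b were the genes whose shares moved beyond counting error. Mir200c held 46.5% of the family's counts in replicate 2 (interval 45.8 to 47.1) and 26.95% in replicate 1 (22.6 to 31.6). Mir200b held 18.1% in replicate 2 (17.6 to 18.6) and 36.3% in replicate 1 (31.5 to 41.2). For the other 3 genes the intervals of the libraries overlapped: Mir429 held 29.1% and 31.5% in replicates 2 and 1, Mir200a 4.08% and 4.28%, and Mir141 2.24% and 1.01%.

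**Figure D2:**
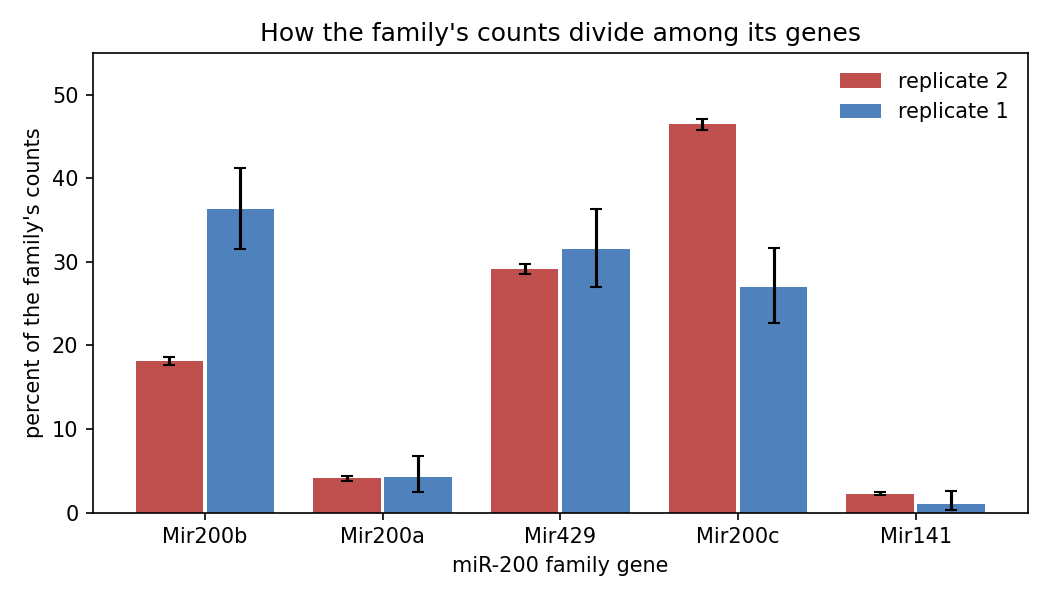
Percent of the family's counts held by each gene in replicate 2 (red) and replicate 1 (blue), with exact 95% Clopper-Pearson intervals for counting error. Mir200c stands at 46.5% in replicate 2 and 26.95% in replicate 1, Mir200b at 18.1% and 36.3%, and the intervals of the other genes overlap between the libraries.

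Ratios between hairpins of the same cluster remove the scaling of the libraries. Counts of Mir429 over Mir200a were 7.14 in replicate 2 (interval 6.68 to 7.63) and 7.35 in replicate 1 (4.41 to 13.02). Counts of Mir200c over Mir141 were 20.7 in replicate 2 (19.04 to 22.6) and 26.8 in replicate 1 (10.1 to 99.97). For both ratios the intervals of the libraries overlapped. Counts of Mir200b over Mir429 were 0.621 in replicate 2 (0.598 to 0.644) and 1.15 in replicate 1 (0.900 to 1.48), while those of Mir200b over Mir200a were 4.43 (4.14 to 4.75) in replicate 2 and 8.47 (5.11 to 14.9) in replicate 1. Mir200b was thus lower relative to both other genes of its cluster in replicate 2.

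The balance between the seeds, in contrast to that between the clusters, did not differ beyond counting error. The genes with the seed AAUACUG held 93.7% of the family's counts in replicate 2 (interval 93.4 to 93.98) and 94.7% in replicate 1 (92.03 to 96.7). Their summed level was 5456 CPM in replicate 2 and 68.6 CPM in replicate 1, and that of the AACACUG genes was 368 CPM in replicate 2 and 3.83 CPM in replicate 1. These sums count both arms of each hairpin, so they describe genes grouped by the seed of their 3′ arm.

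Across all 433 detected genes the log2 ratio of (CPM + 1), replicate 2 over replicate 1, had a median of 0.27 and quartiles of -0.52 and 1.05. The ratios of the family ran from 5.27 for Mir200b to 7.04 for Mir200c, with a median of 6.16 over the 5 genes. Of the detected genes, 45 (10.4%) were at least 4-fold higher in replicate 2 and 22 (5.08%) at least 4-fold lower. With edgeR TMM or DESeq2 scaling the counts were 29 higher (6.71%) and 38 lower (8.80%), so which direction holds more genes depends on the scaling. Of all detected genes 263 (60.7%) were higher in replicate 2 by any amount and 170 (39.3%) lower. With TMM 214 of 432 (49.5%) were higher, and with DESeq2 scaling 208 of 432 (48.1%). All 4 detected members were among the 45, and past 4-fold under each of these scalings; in the 45 they held 5.73% of the set's summed replicate 2 CPM. The family was chosen for this difference, so its count among them carries no further information.

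A level of at least 30-fold higher in replicate 2 was reached by 6 detected genes (1.39%). They were the 4 detected members, Mir182 and Mir183, and the next gene below that fold was Mir130b at 29.1-fold. This fold was set with the values known. Other genes at the levels of the 4 detected members are given beside them as a description only. Because the family was chosen for its difference, a contrast with such genes follows from that choice. In replicate 1, 131 other detected genes lay within the detected members' range of 3.10 to 26.3 CPM, and their median in replicate 2 was 9.84 CPM with a highest value of 898, that of Mir183. In replicate 2, 105 other detected genes lay within the members' range of 238 to 2706 CPM, and their median in replicate 1 was 764 CPM with a lowest value of 10.2, that of Mir182.

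**Figure D3:**
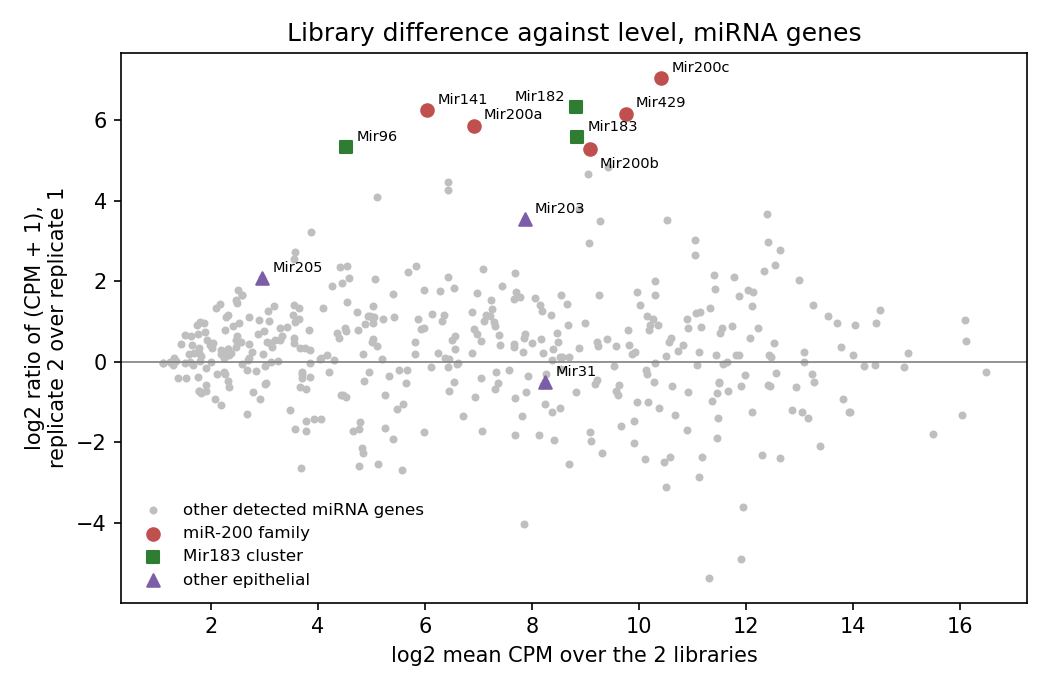
Log2 ratio of (CPM + 1), replicate 2 over replicate 1, against log2 mean CPM for the 433 detected microRNA genes (grey), with the miR-200 family (red circles), the Mir183 cluster (green squares) and the other epithelial genes (purple triangles); Mir141 and Mir96 are drawn although not detected. The family lies between 5.27 and 7.04, and the genes of the Mir183 cluster lie within that range (Mir182 at 6.32, Mir183 at 5.57 and Mir96 at 5.32).

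Genes of most similar behaviour were named by the distance of their log2 ratio from the family's median, over these 2 libraries and among 293 other detected genes with a mean of at least 20 CPM. The nearest was Mir182, with 895 CPM in replicate 2 and 10.2 CPM in replicate 1, 87.6-fold higher in replicate 2 (interval 67.3 to 116). Mir183, from the same sensory cluster on chromosome 6, had 898 CPM in replicate 2 and 17.9 CPM in replicate 1. The third gene of that cluster, Mir96, missed detection with 197 counts in replicate 2 and 1 count in replicate 1, which gives a CPM ratio of 253 (interval 44.9 to 10045). The next were Mir130b (1321 CPM in replicate 2 and 45.4 in replicate 1), Mir135b (1019 and 39.4), Mir701 (165 and 6.57), Mir135a-1 (165 and 7.66) and Mir217 (66.1 and 2.92), each with replicate 2 first. The last 3 of the 10, Mir18, Mir17 and Mir203, were 14.1-fold, 12.7-fold and 11.9-fold higher in replicate 2. A likeness over 2 libraries is only a similar ratio.

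Other epithelial genes went both ways. Mir203, known for promoting the differentiation of skin epithelium, had 429.8 CPM in replicate 2 and 36.1 CPM in replicate 1. Mir205, which like the miR-200 family represses Zeb1 and Zeb2, had 13.1 CPM in replicate 2 and 2.37 CPM in replicate 1, 5.53-fold higher (interval 2.99 to 11.03). Mir31 went the other way, with 250.3 CPM in replicate 2 and 356 CPM in replicate 1. All 3 were detected, and 2 were at least 4-fold higher in replicate 2 (10.4% of all detected genes were), by less than any member of the miR-200 family.

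Genes linked to mesenchymal cells and EMT were near the background of all genes in median and in direction. Of 10 listed genes, 8 were detected, 5 of them higher and 3 lower in replicate 2, beside 60.7% higher among all detected genes, with a median log2 ratio of 0.32 against 0.27 for all detected genes. With edgeR TMM or DESeq2 scaling the list's median becomes -0.04 and the split 4 and 4, because Mir222 turns lower, while the median of all detected genes becomes -0.07. No other list described here changes its split with these scalings. Mir143, known from smooth muscle, had 2947 CPM in replicate 2 and 3099 in replicate 1, and Mir221 had 1764 and 3489 CPM in replicates 2 and 1. Mir222, the neighbour of Mir221, had 1047 CPM in replicate 2 and 884 in replicate 1. Of the 8 detected genes, 2 were at least 4-fold higher, beside 10.4% of all detected genes. These were Mir10b and Mir214, named after their values were seen, at 5.75-fold and 4.63-fold. With edgeR TMM scaling they were 4.48-fold and 3.61-fold higher, so Mir214 falls short of 4-fold there, as it does with DESeq2 scaling. The summed level of the list was 7346 CPM in replicate 2 and 8510.04 CPM in replicate 1.

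Markers of tissues next to the hippocampus or rich in miR-200 were read beside the family. Of 7 choroid plexus and ciliated genes, 4 were detected and all 4 were higher in replicate 2, as were 60.7% of all detected genes. Their median log2 ratio was 0.48, beside 0.27 for all detected genes. Only Mir449a was at least 4-fold higher, with 1139 CPM in replicate 2 and 101 CPM in replicate 1. Mir204, the abundant choroid plexus microRNA, had 858 CPM in replicate 2 and 660.1 in replicate 1, and Mir34c had 296 and 213 CPM in replicates 2 and 1. Mir211 had 4 counts in replicate 2 and 8 in replicate 1, and Mir449b 3 and 0. The list's summed level was 2305 CPM in replicate 2 and 984 CPM in replicate 1. Its part in the family's difference was not tested.

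Of the 5 pancreas and pituitary genes, 3 were detected. Of these, 2 were higher and 1 at least 4-fold, beside 60.7% and 10.4% of all detected genes. Their median log2 ratio was 1.16, beside 0.27 for all detected genes. The list's summed level was 656 CPM in replicate 2 and 403 CPM in replicate 1. Mir7-2, abundant in endocrine cells, had 452 CPM in replicate 2 and 202 in replicate 1. Mir375, known from endocrine cells of pancreas and pituitary, went the other way with 122 CPM in replicate 2 and 197 CPM in replicate 1, while Mir217 was 22.6-fold higher (interval 13.7 to 40.2). None of the list's 5 genes was at 0 in either library. The part of such cells was not tested.

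The Mir17-92 cluster is known to be high in dividing progenitors. Of 8 listed names 6 were in the tables and 4 detected, all 4 higher and 3 of them at least 4-fold, beside 60.7% and 10.4% of all detected genes. Their median log2 ratio was 3.58, beside 0.27 for all detected genes. Mir17 had 9932 CPM in replicate 2 and 782 in replicate 1, Mir20a 2718 and 239, and Mir92-1 2455 and 1389. The list's summed level was 15989 CPM in replicate 2 and 2473 in replicate 1, and its part in the family's difference was not tested. The neuron-enriched genes had a median log2 ratio of 0.66 over the 14 detected, 8 higher and 6 lower, a split close to that of all detected genes. Their most abundant genes were Mir149 (32894 CPM in replicate 2 and 13509 in replicate 1), Mir128-1 (21819 and 11606) and Mir132 (4038 and 17142). Mir128-1 has a copy of its mature sequence at Mir128-2, so its count is uncertain. The same limit holds for any other named gene with copies at several loci. Numbered symbols such as Mir124a-1 and Mir9-3 point to such copies, but the sequences were not compared.

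**Figure D4:**
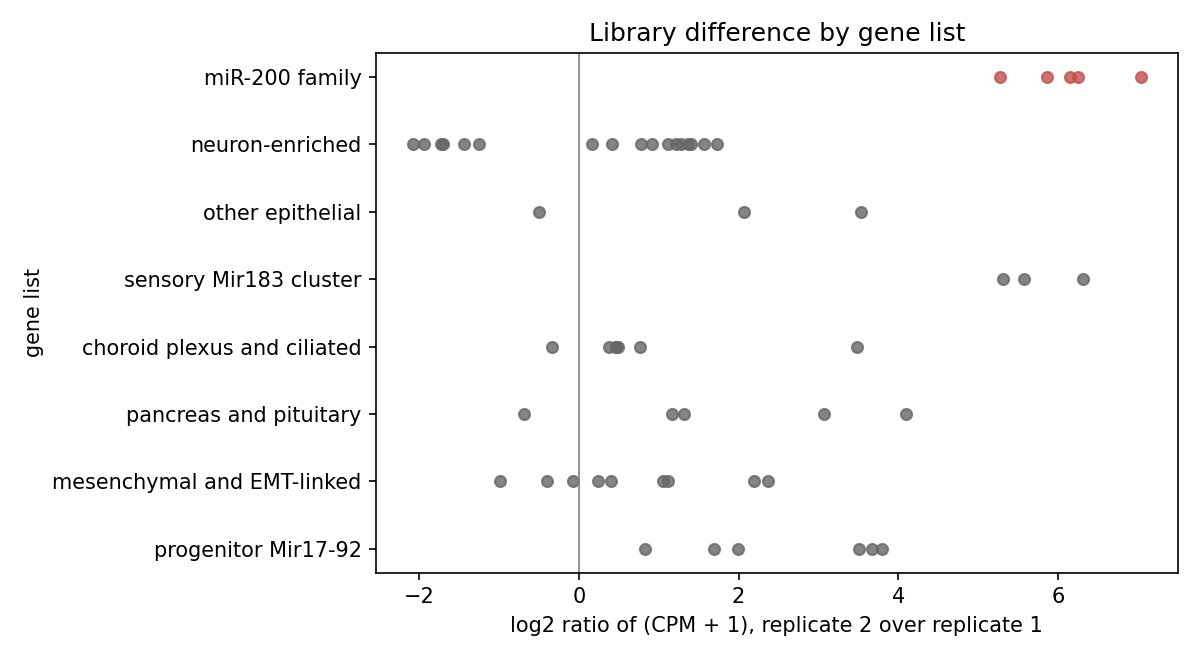
Log2 ratio of (CPM + 1), replicate 2 over replicate 1, for each gene of the family (red) and of the other lists (grey), leaving out a gene with no count in either library. The family and the Mir183 cluster lie above 5, and the genes of the other lists below them, with Mir217 of the pancreas and pituitary list highest among these at 4.10.

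On the opposite strand the members had almost no counts. Mir200a had 2 counts there in replicate 2 and 1 in replicate 1, while the other 4 genes had 0 in both libraries. Counts made without regard to strand equalled the stranded ones for those 4 genes, and for Mir200a were 1016 in replicate 2 and 18 in replicate 1. No member lost reads to an overlapping microRNA gene in the counts made without strand.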

How the data were processed

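Short RNA, with a size range under 30 per the labels, was sequenced from 2 biological replicates of 1 group. The deposited tables hold whole-number read counts per microRNA gene in 3 unnamed columns. Per the deposited text beside each table, the assembly was mm10 and the annotation GENCODE M21; no source used here states the aligner, trimming or counting settings. The second value column, with the most gene reads, was read as the sense strand and used throughout. The 4 rows that name no gene stayed out of the library totals. Reads from the CAST/EiJ chromosome can carry mismatches to mm10, and alleles were not analysed here.

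CPM, means, SDs, ratios and exact intervals were computed from the deposited counts with scipy 1.17.1. Log2 ratios add 1 CPM; folds add nothing. Genes with at least 2 CPM in both libraries were called detected. Members and lists were chosen with earlier results of these data known. Besides the 5 members, the genes named were the 10 nearest in log2 ratio, the 3 most abundant detected genes of each list and the neighbours in rank of mean CPM. Mir96, Mir211, Mir449b, Mir10b, Mir214 and the Mir124a genes were named after their values were seen. With 1 group, no test between conditions exists. Alternatives used edgeR 4.0.16 TMM factors and DESeq2 1.42.0 size factors on the counts. The fold and interval calculation was tested on simulated Poisson counts with fixed library totals. Without PCR copies or variation between replicates, that simulation checks the calculation only.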

Additional observations from a re-analysis of the deposited data

How the results depend on the processing

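No paired analysis was possible because there is 1 group. The family's mean level of 2948 CPM ranged from 72.4 CPM without replicate 2 to 5824 CPM without replicate 1, so either library decides it, and was 921 per 1000000 of all reads in the tables; the members' levels without either library moved likewise. The share of the chromosome 4 genes, 61.7% as a mean, ranged from 51.3% without replicate 1 to 72.0% without replicate 2. The family's log2 ratio of 6.31 became 5.95 with edgeR TMM, 5.95 with DESeq2 size factors and 6.09 with all reads as the denominator. These scalings shift the median of detected genes by -0.33, -0.33 and -0.18. With each of them the family's log2 ratio lay outside its interval for counting error. The members' log2 ratios kept their direction in all 30 combinations of gene and alternative, between 4.56 and 7.48. Both extremes were in Mir141, with 5 or 0 CPM added in place of 1. In 20 of the 30 the value lay outside the member's interval for counting error. That interval is for the fold with nothing added, while most of the values hold an added CPM. For Mir141 and Mir200a, with few counts in replicate 1, the added CPM can itself place a value outside. Those intervals do not cover the choice of scaling or of added CPM, and the count of 20 does not separate the effects of these choices. The count of 45 genes at least 4-fold higher in replicate 2 became 181 with no filter on low counts, 26 among genes with a mean of at least 100 CPM, 29 with edgeR TMM and 29 with DESeq2 size factors. Counts without strand gave 39. The low counts of Mir141 and Mir200a in replicate 1, 4 and 17, limit their folds.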
